A study of Drosophila melanogaster with 2 samples.

Results

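The binding of GFP-tagged Sage was described at 7 genes of fat storage and lipid transport in Drosophila melanogaster, Lpin, bmm, apolpp, Apoltp, mdy, SREBP and Seipin, of 13945 protein-coding genes on the chromosome arms. The genes were picked by symbol, with the results of these same data known. Every region of the deposited dm6 lists whose summit lay in a gene or within 2 kb of it was taken. The data are chromatin immunoprecipitation with sequencing (ChIP-seq), using an antibody to GFP, from a transgenic line that stably expresses sage with GFP fused to its C-terminus. Whole larvae of the third instar at the wandering stage, of unknown age and with both sexes pooled, gave 2 samples that form 1 group, biological replicates 3 and 4. No untagged or other group was analysed here, and the sources do not give the promoter that drives the transgene. In whole larvae the tissue in which a region was bound cannot be told apart, nor can weak binding in many cells from strong binding in few. The labels do not say whether the biological replicates were collected separately.

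Each replicate has a list of ranked regions that holds background as well as peaks, 29999 in replicate 3 and 30000 in replicate 4. The pooled replicates have a list of 30000, and the 3312 strongest pooled regions form the list that passed the submitters' irreproducible discovery rate (IDR) threshold, down to a signal of 95.7. A region's signal is the peak caller's own value, never negative and of unstated scale, so it was compared only within 1 list. Read depth is unknown, and a region has 1 value in each list, with no error.

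Sage belongs to the basic helix-loop-helix (bHLH) family, whose proteins bind E-boxes, CANNTG, and is known for its work in the salivary gland. Insects store fat as triglyceride, mostly in the fat body. Lipin and the enzyme encoded by mdy make it, Brummer (bmm) breaks it down, Seipin shapes the droplets that hold it, SREBP switches on fatty acid synthesis, and lipid leaves for other tissues on particles built from apolpp with the help of Apoltp.

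Of the 7 genes, 6 had an IDR region and Seipin had none, with 11 IDR regions in all. Of all protein-coding genes 22.9% had such a region, and of those of at least 5 kb, a length that 6 of the 7 genes reach, 39.4%. The genes were chosen with such results known and the length was set after their values were seen, so nothing is read from this difference. Of the 11 summits, 7 lay within 500 bp of a transcription start site (TSS) of the gene itself, and all 7 were upstream of it. Among all IDR summits on arms, 47.3% were within 500 bp of some annotated TSS, and of those near a protein-coding TSS 81.6% were upstream. Both shares use the nearest TSS of any gene, so they are not like for like with the counts at own TSSs. By the nearest TSS the apolpp summit is downstream, 50 bp from a TSS of Zyx and in its 5′ UTR. The 11 summits were also taken for lying in or near a gene.

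The bases around the summits are shown for the strongest IDR region of 5 genes, all at promoters. They are also shown for the other SREBP and Apoltp regions that hold the only E-boxes found. The Lpin region, which also lies at a promoter, is not shown. Each run covers 101 bases centred on the summit, 5′ to 3′ on the transcribed strand of the gene, read from the RefSeq Release 6 genome, which is the dm6 build. Capitals mark an E-box (CANNTG), the DNA replication-related element DRE (TATCGATA), a GATA core (GATAA) or a nuclear receptor half-site (AGGTCA), on either strand. The DRE and a GATA core overlap at bmm.
SREBP, 121 bp upstream, chr3L:19793764-19793864, plus strand: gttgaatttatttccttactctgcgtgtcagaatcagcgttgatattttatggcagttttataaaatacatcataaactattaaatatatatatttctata
SREBP, 593 bp downstream, chr3L:19794478-19794578, plus strand: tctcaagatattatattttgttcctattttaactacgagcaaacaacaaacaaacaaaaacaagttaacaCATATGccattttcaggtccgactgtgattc
Apoltp, 209 bp upstream, chr2L:9633920-9634020, plus strand: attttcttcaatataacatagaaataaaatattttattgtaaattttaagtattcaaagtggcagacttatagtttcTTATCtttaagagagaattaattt
Apoltp, 830 bp upstream, chr2L:9633299-9633399, plus strand: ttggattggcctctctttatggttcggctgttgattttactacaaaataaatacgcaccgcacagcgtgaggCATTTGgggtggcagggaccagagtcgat
mdy, 155 bp upstream, chr2L:16816455-16816555, plus strand: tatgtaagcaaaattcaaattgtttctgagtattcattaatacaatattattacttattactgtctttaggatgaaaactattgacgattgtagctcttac
bmm, 113 bp upstream, chr3L:14786475-14786575, minus strand: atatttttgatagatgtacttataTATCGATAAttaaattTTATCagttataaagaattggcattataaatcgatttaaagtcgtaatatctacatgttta
apolpp, 101 bp upstream, chr4:1060818-1060918, plus strand: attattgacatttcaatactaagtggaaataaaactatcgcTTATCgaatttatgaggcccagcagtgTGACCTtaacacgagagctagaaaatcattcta

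E-boxes were found within 50 bp of 2 of the 11 summits, at SREBP (CATATG, 20 to 25 bases downstream of the summit) and Apoltp (CATTTG, 22 to 27 bases downstream). Of all IDR summits on arms, 35.4% had one. The strongest region of each of the 6 genes had none. The form CATATG was found at 3.95% of all IDR summits. The form CAGCTG was found at 158 of the 3292 summits, the form CATGTG at 136 and the form CAGGTG at 53, and none of the 11 held any of these. Within 100 bp an E-box was found at 6 of the 11 summits and at 60.8% of all IDR summits. The strongest overlapping regions of each replicate had 9 separate summits, since the bmm promoter regions share one and the SREBP intron regions share another. Within 50 bp of these, 4 of 9 had an E-box in replicate 3 and 4 of 9 in replicate 4, against 35.2% and 35.7% of such summits over all IDR regions, shares that were added after the values were seen. A GATA core, the letters GATAA, was found at 5 of the 11 summits, all 3 of bmm, that of apolpp and the stronger of Apoltp, against 23.2% of all IDR summits. GAGAG was found at 3 of the 11, both of Apoltp and that of apolpp (15.2% of all), and AAATCA, the core of the Senseless site, at 3 of the 11 (12.8% of all). The DRE at bmm was found at 1.49% of all IDR summits, and the half-site at apolpp at 1.37%. No forkhead core (TGTTTAC), CREB core (TGACGT) or CACGTG was among these windows, and they occur at 101, 66 and 25 of all 3292 IDR summits. All motifs were sought on both strands. A match is letters in a window and does not show a bound factor.

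Of the 11 summits, 5 were poor in G and C. The GC content within 50 bp was 18.8% at the Lpin summit and at the stronger Apoltp summit, 19.8% at the stronger bmm summit, 24.8% at the SREBP promoter and 25.7% at mdy. These 5 were below the lower quartile of all IDR summits, 28.7%, whose median was 33.7%. The apolpp summit was near that median, with 34.7%, and the region 830 bp upstream of Apoltp, with 48.5%, was the 1 summit above the upper quartile of 40.6%. The other summits also lay between the quartiles, with 29.7% in the bmm intron, 38.6% at 325 bp upstream of bmm and 31.7% at both SREBP intron summits. The genes were chosen with results known, so nothing is read from these counts.

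**Figure D1:**
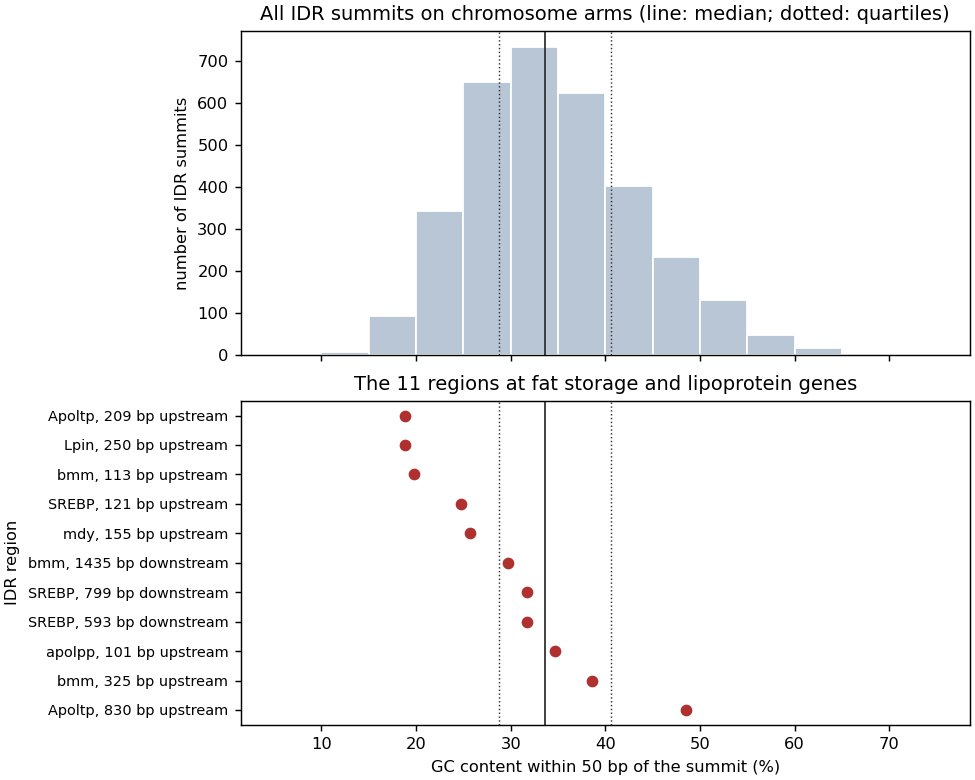
GC content (x axis, percent) within 50 bp of the summit. The upper panel counts all 3292 IDR summits on chromosome arms in bins, with their median and quartiles as lines, and the lower panel gives 1 point for each of the 11 regions at fat storage and lipoprotein genes, of which 5 lie below the lower quartile and 1 above the upper.

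Lpin encodes Lipin, a phosphatidate phosphatase that makes diacylglycerol, the precursor of stored triglyceride, and that flies need for normal fat body. It held the strongest region of the 7 genes. The pooled region spans chr2R:8146081-8146382, with its summit at 8146231 and a signal of 778, rank 35 of 30000. In replicate 3 its signal was 373 (rank 23) and in replicate 4 it was 403 (rank 41), and the replicates placed its summit 6 bp apart. Both replicates thus have it among their strongest regions.

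The Lpin gene (FBgn0263593, chr2R:8136986-8156654, minus strand) has 11 annotated transcripts from 4 TSSs, and this region lies 250 bp upstream of the internal TSS at 8145981, from which 7 transcripts start. For the transcripts that start at 8156654 it is an intron. The first TSS of the gene had no IDR region. There, replicate 3 had a region 370 bp upstream (signal 38.9, rank 4743) and replicate 4 had one 574 bp upstream (32.5, rank 9238), and both are closer to the TSS of lncRNA:CR44068, at 137 and 67 bp. The strongest region of Lpin thus stood at an internal promoter, not at the first. The first TSS is also a TSS of kermit, a gene on the same strand that overlaps the 5′ part of Lpin.

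The other 7 pooled regions in Lpin ranged in signal from 28.7 to 92.2. The strongest of them, 947 bp downstream of the same TSS, was at rank 3540, just below the IDR list. It ranked 2533 in replicate 4 and 8265 in replicate 3. A region 1091 bp upstream of the TSS at 8142455 ranked 1562 in replicate 4 (signal 85.3) and had no pooled region, while the nearest region of replicate 3 there was at rank 24487. The replicates differ at the weaker sites of this gene but not in which is strongest. Of the 7 weaker pooled regions, 5 also lie in kermit, and 1 of them is 41 bp from an internal TSS of that gene.

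By ranks in the pooled list and both replicates' lists, the 3 IDR regions closest to the Lpin region had as nearest protein-coding TSS those of CG9663 (ranks 34, 24 and 35 in the pooled list, replicate 3 and replicate 4), CG13323 (39, 26 and 44) and SLC5A11 (32, 19 and 39). The likeness is the sum of absolute log10 rank differences over the 3 lists, which was 0.0998, 0.131 and 0.144. The CG13323 TSS was 11949 bp from its region and the CG9663 TSS 947 bp, while the SLC5A11 TSS was 164 bp away. The pooled list is made from both replicates, so these are not independent measures.

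mdy encodes diacylglycerol acyltransferase, which joins the last fatty acid to make triglyceride. The gene (FBgn0004797, chr2L:16816660-16826964, plus strand) had 1 IDR region, 155 bp upstream of the TSS of 3 of its 4 transcripts. Its signal was 141 (rank 1528) in the pooled list, 63.6 (rank 1616) in replicate 3 and 90.9 (rank 1359) in replicate 4. The summits of the replicates were 88 bp apart. The gene CG13280 spans this site with an intron, but its nearest TSS is 4588 bp away.

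The other 7 pooled regions of mdy had signals from 30.4 to 72.2, and 5 of them met a region in both replicates. Toward the 3′ end of mdy, 2 of these weaker regions lay at the TSSs of the neighbours Cse1 (49 bp) and AspRS-m (2 bp). The region at AspRS-m ranked 2548 in replicate 3 and 7018 in the pooled list. Replicate 4 had no region at either of these 2 TSSs.

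Seipin encodes a membrane protein of the endoplasmic reticulum that works where lipid droplets form. The gene (FBgn0040336, chrX:2619799-2622140, plus strand) is 2.3 kb long and had no region within 2 kb in the IDR, pooled or replicate lists. The nearest summits were 13562 bp from the gene in the pooled list (rank 26123), 12977 bp in replicate 3 (rank 10653) and 13489 bp in replicate 4 (rank 16382). Of all protein-coding genes, 23.9% likewise had no summit in these lists, and of those under 5 kb 29.4%. The lists end at a fixed number of regions, so weaker signal there was not detectable.

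bmm encodes Brummer, the main triglyceride lipase of the fat droplet and the fly counterpart of mammalian adipose triglyceride lipase. The gene (FBgn0036449, chr3L:14776496-14786412, minus strand) had 3 IDR regions. Those 113 and 325 bp upstream of its single TSS overlap each other by 178 bp and had nearly equal pooled signals, both 107 (ranks 2678 and 2679). Both summits lie between bmm and Tdrd3, a gene transcribed the other way whose TSS is 266 and 54 bp from them, so the second is closer to Tdrd3.

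The replicates differed in how they split the bmm promoter. Replicate 3 had separate regions at 159 bp (signal 63.8, rank 1602) and 370 bp (34.5, rank 6061). Replicate 4 had 1 region, 334 bp upstream of bmm and 45 bp from the TSS of Tdrd3 (signal 50.1, rank 4595). In replicate 4 the region at this promoter thus stood closer to Tdrd3 than to bmm, and it was not among the 3312 strongest of that list.

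Downstream of the bmm TSS, the IDR region at 1435 bp (chr3L:14784782-14785171), in an intron, was near the end of the IDR list, at rank 3292 and a signal of 96.0. It ranked 3770 in replicate 3 and 4237 in replicate 4, with summits 169 bp apart. Another intron region, 5041 bp downstream, was just below the IDR list (signal 87.0, rank 3915). Replicate 4 had a region there at rank 2062, with its summit 5107 bp downstream. The replicate 3 region that overlaps it ranked 7544, with its summit 4877 bp downstream. That summit is closer to a weaker pooled region at 4812 bp (rank 25047). In all, 5 weaker pooled regions lay in this gene, of which 4 met a region in both replicates.

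apolpp encodes the apolipophorin that is the scaffold of Lipophorin, the main lipid carrier of insect blood. The gene (FBgn0087002, chr4:1060969-1077273, plus strand) has 4 transcripts from 3 TSSs and had 1 IDR region, 101 bp upstream of the first. The signal was 105 (rank 2793) in the pooled list, 49.9 (rank 2774) in replicate 3 and 59.7 (rank 3248) in replicate 4. The summits of the replicates were 111 bp apart. The pooled summit lies in the 5′ UTR of Zyx, a gene on the other strand that overlaps the start of apolpp, and is 50 bp from a TSS of Zyx, so it is closer to Zyx than to apolpp.

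The other TSSs of apolpp had weaker pooled regions, the strongest 487 bp upstream of the TSS at 1064906 (signal 64.3, rank 6737, and ranks 6288 in replicate 3 and 12793 in replicate 4). With 12 pooled regions the gene had more than any other of the 7, but the average of chromosome 4 would give 9.88 over the gene with 2 kb to either side. Of its 11 weaker regions, 4 met a region in both replicates.

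Apoltp encodes the apolipoprotein of the lipid transfer particle, which loads Lipophorin with lipid. The gene (FBgn0032136, chr2L:9634179-9656026, plus strand) is the longest of the 7, at 21.8 kb, and had 2 IDR regions, both upstream of its 1 TSS. The nearest TSS of another gene was 8064 bp or more from their summits. The summit 209 bp upstream was at the same base in all 3 lists. Its signal was 162 (rank 1130) in the pooled list, 67.9 (rank 1398) in replicate 3 and 90.6 (rank 1373) in replicate 4.

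The region 830 bp upstream of Apoltp ranked 2956 in the pooled list, 6435 in replicate 3 and 2606 in replicate 4. The body of the gene held 1 pooled region, 11948 bp downstream, with a signal of 24.9 at rank 28393. With the upstream pair, the gene and 2 kb to either side held 3 pooled regions, where the average of its chromosome would give 6.25. By the same measure Lpin, bmm and mdy held 8 each, where the averages would give 4.53, 3.36 and 3.46. SREBP held 3 (average 2.19) and Seipin 0 (average 1.33). The genes were chosen with results known, so nothing is read from these differences. Of the 6 genes with IDR regions, Apoltp was the one whose summits lay farthest from a TSS of another gene, ahead of mdy (4588 bp) and Lpin (2347 bp).

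SREBP encodes the membrane-held bHLH factor that, once cut free, drives genes of fatty acid synthesis. The gene (FBgn0261283, chr3L:19793935-19798979, plus strand) is 5.0 kb long, has 4 transcripts from 1 TSS, and had 3 IDR regions, all within 1 kb of that TSS. At the promoter, 121 bp upstream, the signal was 239 (rank 492) in the pooled list, 104 in replicate 3 (rank 519) and 134 in replicate 4 (rank 584). This summit also lies 245 bp from the TSS of the neighbour CG42637. Next to Lpin it was the highest ranked region of the 7 genes in each of the 3 lists.

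In the SREBP intron, 593 bp downstream of the TSS, the ranks were 1120, 1181 and 1358 in the pooled list, replicate 3 and replicate 4. A neighbour 799 bp downstream (chr3L:19794539-19794928) overlaps it by 184 bp and was less alike between the replicates, with rank 2886 in the pooled list, 8162 in replicate 3 and 2039 in replicate 4. No pooled region lay in the rest of the gene. In the pooled list, every region of SREBP thus stood at the start of the gene.

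**Figure D2:**
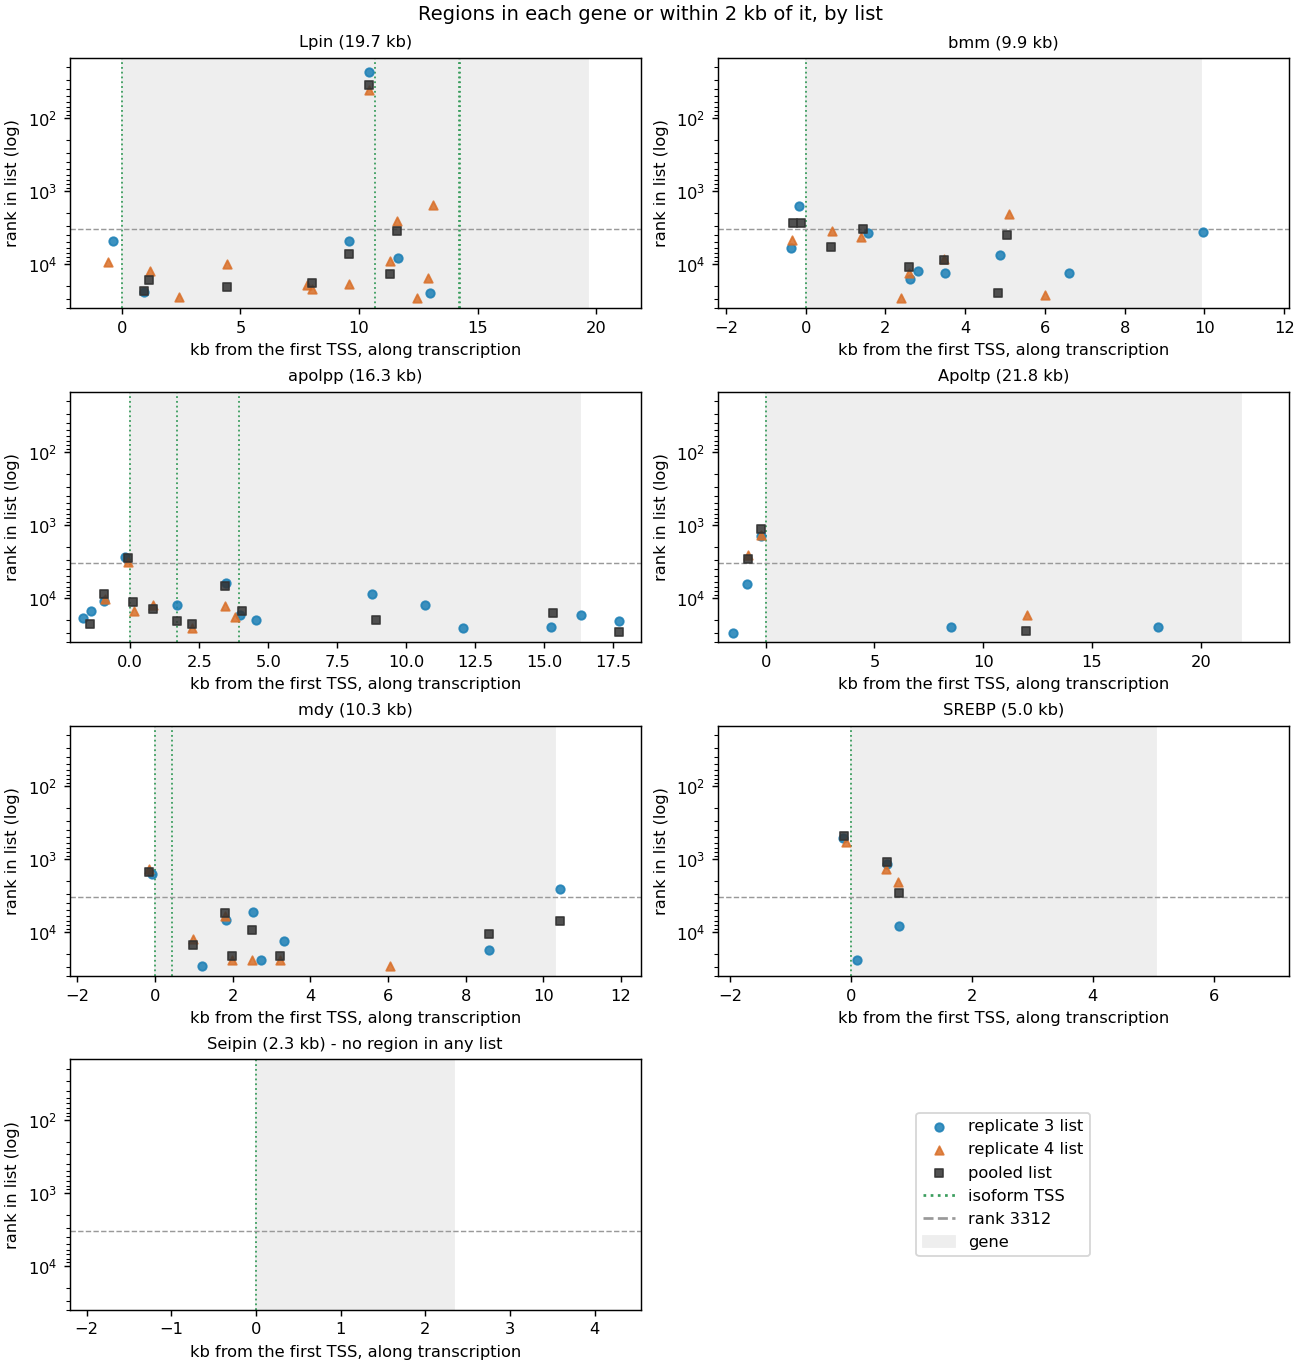
Every region in the 7 genes or within 2 kb of them. The x axis is the distance of the summit from the first TSS in kb along transcription, the y axis the rank in each list on a log scale (strongest at the top), grey the gene, green dotted lines the isoform TSSs and the dashed line rank 3312. Points above the dashed line lie both within 500 bp of a TSS of the gene and farther from one. The strongest Lpin region stands at ranks 23 to 41.

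Agreement between the replicates was read from overlap with the strongest regions of each. A region among the 3312 strongest of each replicate overlapped 7 of the 11 IDR regions, against 58.5% of all IDR regions on arms. The 7 were those of Lpin, apolpp, mdy, the stronger one of Apoltp and all 3 of SREBP, of which the one 799 bp downstream met its neighbour's region in replicate 3. The 3 bmm regions and the weaker Apoltp region were not among them. In each replicate's full list all 11 met a region. The share of all IDR regions that do so is not given, so nothing is read from this count. Of the 31 weaker pooled regions 18 met a region in both full lists, while this held for 52.0% of all pooled regions below the IDR list, a background added after the values were seen.

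**Figure D3:**
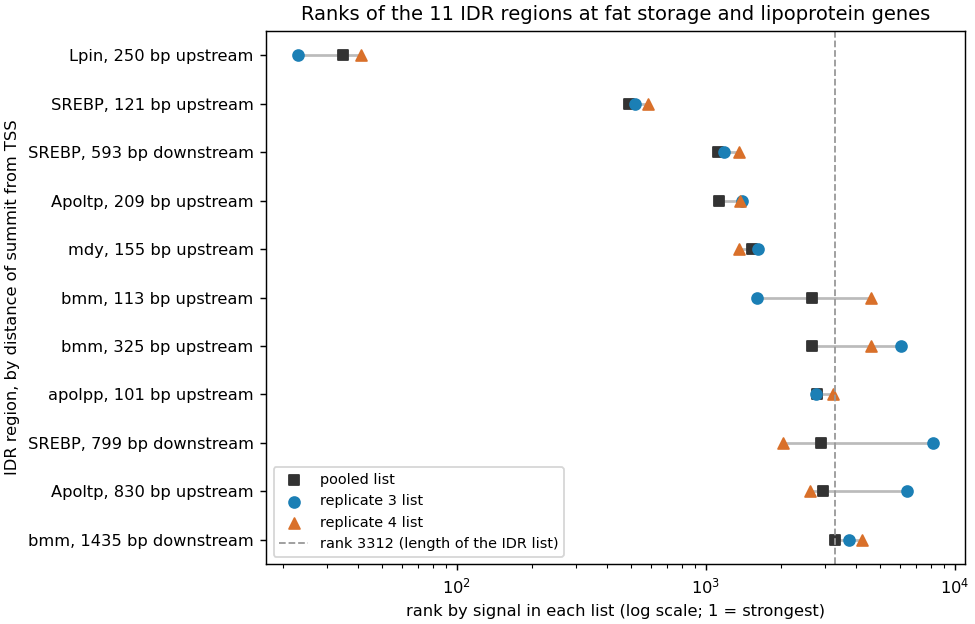
Ranks (x axis, log scale, 1 is strongest) of the 11 IDR regions in the pooled list (squares), replicate 3 (circles) and replicate 4 (triangles), ordered by pooled rank. The replicates' ranks lie far apart for the SREBP region 799 bp downstream (8162 and 2039), the bmm region 113 bp upstream (1602 and 4595) and the Apoltp region 830 bp upstream (6435 and 2606). For that bmm region the replicate 4 rank belongs to a region whose summit is 221 bp away. The same replicate 4 region is matched to the bmm region 325 bp upstream.

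Few summits lay near the limit of 2 kb. The farthest pooled summit kept was 1444 bp from apolpp, and the nearest left out was 2018 bp from it, with a signal of 25.4 at rank 27603. Among IDR summits the farthest kept was 830 bp from Apoltp, and the nearest left out was 2991 bp from SREBP (signal 152, rank 1296), followed by one 3452 bp from bmm (154, rank 1259).

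Other genes of fat metabolism were set beside these. In 8 lists written from textbook knowledge, with earlier results of these data known, 21 of 58 genes (36.2%) had an IDR summit in the gene or within 2 kb, against 22.9% of all protein-coding genes. Of the 27 list genes of at least 5 kb it was 44.4%, where the share of all such genes was 39.4%, and nothing is called particular to the lists. A pooled summit was found for all but 19 of the 58, and for 60.3% of all protein-coding genes. For 10 of the 21 genes the strongest region was nearer to the TSS of another gene.

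Genes of triglyceride synthesis other than Lpin and mdy had an IDR summit in 2 of 7 cases. These were Agpat2, an acyltransferase of phosphatidate synthesis (signal 168, 723 bp downstream of a TSS, in an intron), and mino, which encodes a mitochondrial glycerol-phosphate acyltransferase (98.9, 23 bp upstream). Dgat2, whose product does the same step as that of mdy, had a pooled region at rank 4398 and none in the IDR list. Of 4 lipase genes, Lip3 had one (111, 225 bp upstream), and Hsl, which encodes hormone-sensitive lipase, had a pooled region at rank 3809.

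Fatty acid synthesis, the process that SREBP controls, had 5 of 8 genes with an IDR summit. All 8 are at least 5 kb long, and of all protein-coding genes of that length 39.4% had one. The list was written with earlier results known, so nothing is read from this count. The highest signals were near Desat1, a desaturase gene (1179), and ATPCL, which encodes ATP citrate lyase (569), but both regions were at promoters of neighbours, 114 bp from the TSS of CG18549 and 127 bp from that of CG8320. Baldspot, a fatty acid elongase gene, had an intron region (128). FASN1 and FASN2, neighbouring fatty acid synthase genes, share 1 region (105, 463 bp upstream of FASN1, in the 3′ UTR of FASN2), and replicate 3 had none there. ACC, which encodes acetyl-CoA carboxylase, had no pooled region. None of the 3 genes whose products release SREBP, SCAP, S1P and S2P, had an IDR summit. SCAP and S1P had weaker pooled regions, the strongest at ranks 9859 and 9153. Of all protein-coding genes only 22.9% had an IDR summit, so nothing is read from its absence at these 3.

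Among 6 genes of lipoprotein assembly, lipoprotein receptors and sterol transport, 3 had one. The region at LpR2, a Lipophorin receptor gene (513, rank 78, with ranks 86 in replicate 3 and 64 in replicate 4), lies in an intron of the gene, 136 bp from the TSS of lncRNA:CR46102. Those at Mtp, which encodes the microsomal transfer protein that loads lipid on apolpp (201), and Npc2a, a sterol transport gene (116), were nearer to the TSSs of sky and Got2. LpR1, the other Lipophorin receptor gene, had 10 pooled regions, the strongest at rank 5381. Of 8 genes of lipid droplet proteins and phospholipid supply, 2 had one, Cds, which encodes CDP-diacylglycerol synthase (209, 88 bp from the TSS of Uba2), and Lsd-2, a perilipin gene (101, in the 3′ UTR, at ranks 2218 in replicate 4 and 22984 in replicate 3).

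Of 12 regulators of fat storage, 4 had an IDR summit. They were foxo, the forkhead factor restrained by insulin (224, ranks 236 in replicate 4 and 12009 in replicate 3), the nuclear receptor genes Hnf4 (169, 351 bp upstream of a TSS) and ERR (136, 44 bp from the TSS of Atg18a), and the kinase gene Sik3 (144, 19 bp from the TSS of CG15073). Of 10 genes of fatty acid oxidation, 4 had one. The strongest was at Mcad, which encodes an acyl-CoA dehydrogenase (383, rank 155, 271 bp upstream, with ranks 134 in replicate 3 and 186 in replicate 4). It was followed by yip2, a thiolase gene (148, none in replicate 3), Etf-QO (125, in the 3′ UTR of Mef2) and CPT2 (100.4, 191 bp upstream).

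**Figure D4:**
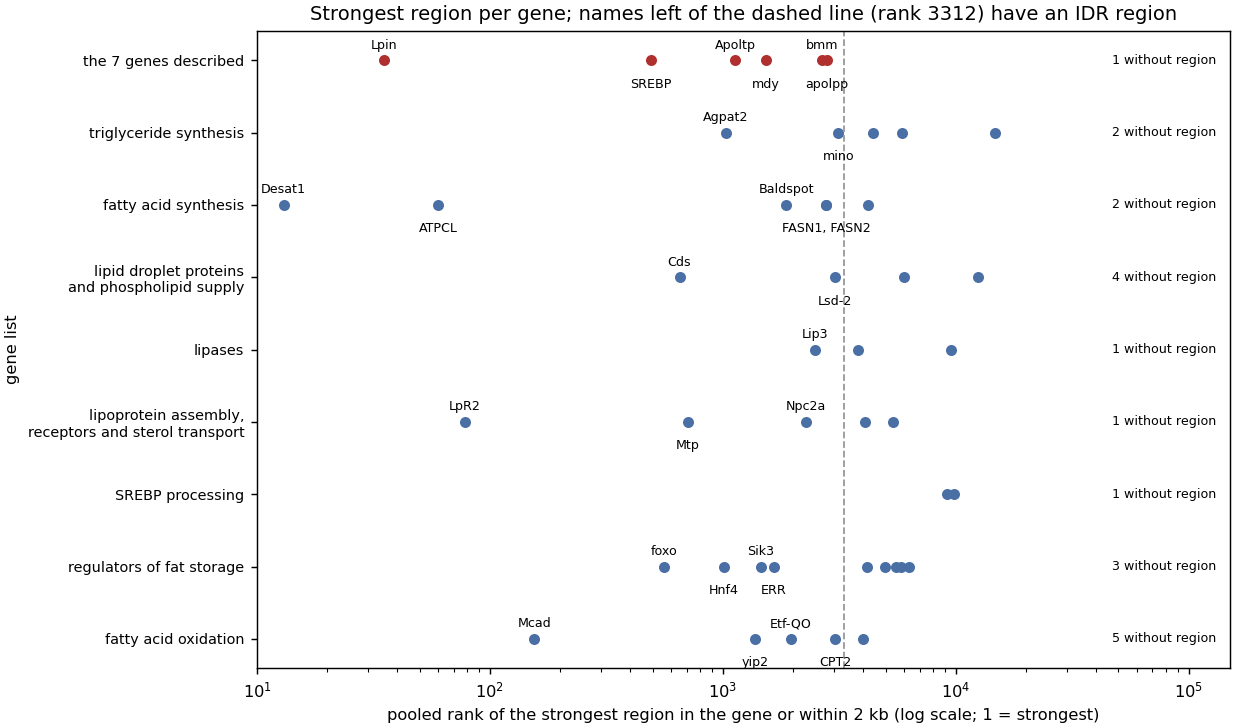
Pooled rank (x axis, log scale, 1 is strongest) of the strongest region in each gene or within 2 kb of it, for the 7 genes (top row) and 8 lists of other lipid genes, with the number of genes that had no pooled region at the right. Named genes, left of rank 3312, have an IDR region, and Desat1 (signal 1179) is the 1 gene left of Lpin.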

How the data were processed

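Per the text deposited with the lists, regions of each replicate and of the pooled replicates were found against a control alignment as input for IDR, on dm3 and dm6. The sources used here name no aligner, peak caller or version. The deposited value used is the signal per region, the authors' own, which ranks regions within 1 list. The dm3 lists and the control library were not used here. The 7 genes and the gene lists were chosen with earlier results of these data known.

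Genes and TSSs came from Ensembl release 115 (BDGP6, without transposable elements). Of 59 listed lipid genes, 4 were found under another symbol (Pcyt1, Pcyt2, Cds, Mtpbeta), and since Mtpbeta was already listed 58 remained. Summits were placed at the start plus the deposited offset, counted from 1. Regions were matched between lists by at least 1 bp, giving the value of the match with the nearest summit. All 7 genes are named; in the other lists, each gene with an IDR summit (the 4 strongest of a list, with ties), and the 3 IDR regions closest to Lpin's by rank. Dgat2, Hsl, ACC, LpR1 and the genes of SREBP processing, which have none, were named after their values were seen. No test was run, as there is 1 group. The placing, motif and overlap steps were checked on simulated data (Python 3.11.15, pandas 2.3.3).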

Additional observations from a re-analysis of the deposited data

How the results depend on the processing

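No paired analysis was possible because there is 1 group and no test. The count of genes with an IDR summit was 3 of 7 with summits in the gene alone, because the only IDR summits of mdy, apolpp and Apoltp lie outside, and 4 in the stronger 1656 IDR regions. It was 6 within 1 kb, within 5 kb, within 1 kb of a TSS, and in the 3312 strongest regions of either replicate alone. Of all protein-coding genes, 13.5% had a summit in the stronger 1656 IDR regions. For the 3312 strongest regions the share was 25.4% in replicate 3 and 23.2% in replicate 4. Shares of all genes are not given for summits in the gene alone or for the other distances, so nothing is read from those counts. Of the other lipid genes 11 of 58 had one with summits in the gene alone and 12 in the stronger 1656 IDR regions. Regions met in both replicates were 11 of 11 in the full lists, a count with no share of all IDR regions beside it. E-box counts were 1 of 11 within 25 bp and 6 within 100 bp, against 17.7% and 60.8% of all IDR summits. At the summit of the strongest overlapping region of each replicate alone, the count was 5 of 11 regions. There the SREBP intron regions share a summit and its E-box is counted for both, so that 4 of 9 separate summits had one. Over all IDR regions, 35.2% of such summits had one in replicate 3 and 35.7% in replicate 4. Summits within 200 bp of an own TSS were 4 of 11, and the share of all IDR summits at that distance is not given. The other alternatives stayed within 1.5 times of the counts given. Read depth is unknown, so the precision of the ranks is not known.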
